A study of Lachancea kluyveri with 16 samples.

Results

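In the budding yeast *Lachancea kluyveri*, 63 of 5316 genes with a probe on the array lay higher in the strain SEF1-VP16 than in wild type (WT) in both media, outside the best known responders of the same strain. They were chosen from the deposited log2 values, with the brighter probe of each gene: the mean of the 4 SEF1-VP16 arrays had to exceed the mean of the 4 WT arrays by 0.4 or more, a 1.32-fold difference, in YPD and again in YPGly. At that threshold 320 genes passed in YPD, 316 in YPGly and 80 in both, and 17 of the 80 were set aside, being TCA cycle genes and the genes AFT1, SIT1, FET3 and UGA4. Because the strain differences chose the genes, these differences and any calls made on them are given below as a description and are no test of the genes. The effect of the medium is what was tested.

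WT was the strain JYL1897 (MATa ura3), and SEF1-VP16 was a strain of the same mating type and ura3 marker in which the VP16 activation domain was joined to the C-terminus of Sef1 through a glycine-proline linker, at the native locus. A single SEF1-VP16 strain was used, so clone and allele cannot be told apart. Each strain was grown in YPD, which holds yeast extract, peptone and glucose, and in YPGly, where glycerol takes the place of glucose. Overnight YPD cultures at 28 °C were diluted to 0.2 OD600 per ml and grown for 5.5 h at 30 °C, with 4 arrays, called biological replicates in the methods, for each strain and medium and 16 in all.

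Sef1 is a zinc cluster transcription factor, and VP16 is a strong viral activation domain that, when fused to such a factor, recruits the transcription machinery to the sites it binds. Several TCA cycle enzymes, among them aconitase and succinate dehydrogenase (SDH), need iron-sulphur (Fe-S) clusters that are built in mitochondria on scaffold proteins and handed on by late-acting carriers. SDH also needs dedicated assembly factors that help to attach its flavin and to shield its subunits until they join the inner membrane. Gene symbols here are those of *Saccharomyces cerevisiae* orthologs, the roles given are those known in that yeast, and 39 of the 63 genes had such a symbol. The other 24 go by locus tag, since no table used here gives them a symbol.

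The YPD and YPGly samples were hybridised on a slide each, so the effects of slide and medium cannot be told apart. Within a slide WT and SEF1-VP16 occupied separate rows of arrays, and strain and row cannot be told apart. Between 94.5% and 99.95% of the 10620 gene probes of an array were well above background, with the lowest share on WT YPD replicate 4. SEF1 itself (SAKL0F12342g) differed by −0.39 in YPD and −0.36 in YPGly between SEF1-VP16 and WT, and was thus lower in the strain with the fusion in both media. Of 17 genes that glucose represses in *S. cerevisiae*, 13 were called lower and 2 higher on arrays labelled YPGly. Of all genes tested, 20.2% were called lower and 26.8% higher. The median of this list was −1.72, against 0.14 over all genes tested. Its values ran from −9.29 for 1 gene named JEN1 to 3.25 for another of that name. Genes that glucose represses rise in *S. cerevisiae* when glycerol replaces glucose, so the count and median of this list run against the labels. Of 17 genes that glucose induces there, 6 were called higher where labelled YPGly and 3 lower, near the shares of all genes tested. The median of this list was 0.16, against 0.14 over all genes tested, and its count shows little about the labels. The 3 called lower were HXT3 (−2.64), 1 gene named HXT1 (−3.85) and 1 named PDC1 (−2.97). The study's sources also differ: its gene tables of the strain comparisons assign the media as the labels do, and a supplementary listing of responding genes assigns them the other way. Whether the labels YPD and YPGly were exchanged was not tested, and the media are named as labelled throughout. Under exchanged labels the 63 genes would be the same by the rule, every YPD value below would be a YPGly value and the reverse, and each effect of the medium would change its sign.

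Of the 63 genes, 59 were tested, their probe being well above background on every array of some group, and 4 were not. In the 59, the strain difference had a median of 0.61 (1.53-fold) in YPD, with a range of 0.35 to 1.85, and a median of 0.56 (1.47-fold) in YPGly, with a range of 0.11 to 1.09. The medians over all 5266 genes tested were 0.02 and 0.01. Of the 59, 13 were at least 2-fold higher where labelled YPD and 1 was where labelled YPGly, an order that would turn under exchanged labels. The share of all genes tested at 2-fold was not counted, so this order cannot be set against it. At a limma adjusted p of 0.05 or less with 1.5-fold, 28 of the 59 were called in YPD, where 1.48% of all genes tested were called higher (0.627% lower), and 18 in YPGly, where 1.61% were (0.684% lower). All 4 SEF1-VP16 arrays lay above all 4 WT arrays in YPD for 35 of the 59 (4.5% of all genes tested), in YPGly for 42 (15.5%), in both media for 30 (2.01%) and in neither for 12 (82%). These counts, the calls included, follow from the choice of the genes and are no test of them.

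**Figure D1:**
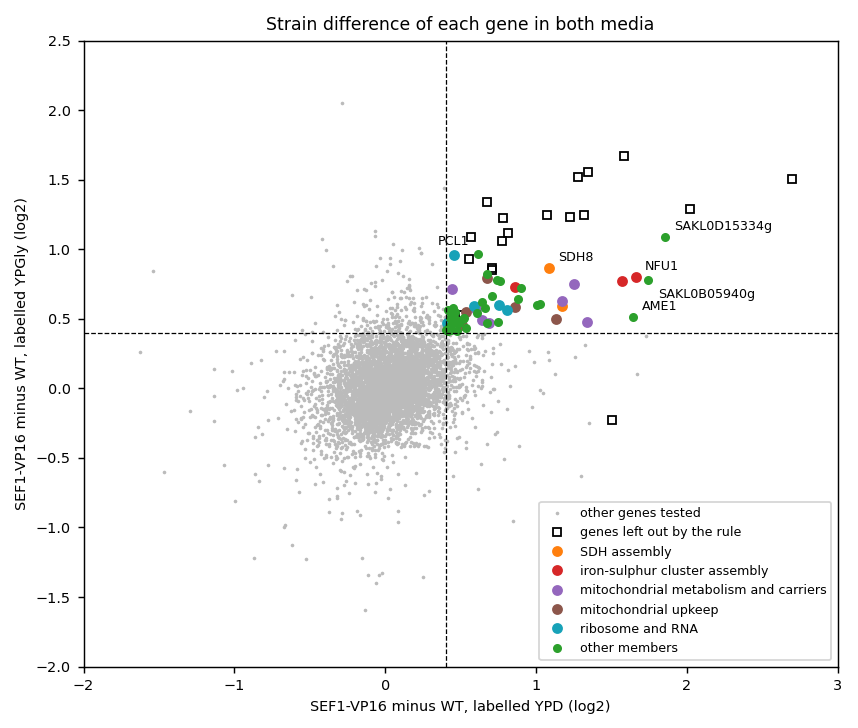
Difference between SEF1-VP16 and WT in log2 units where labelled YPD (horizontal axis) and where labelled YPGly (vertical axis), 1 point per gene tested, with the chosen genes coloured by role and the left-out genes as open squares. The dashed lines mark 0.4, and the chosen genes fill the upper right corner by the rule, from 0.4 up to 1.85 for SAKL0D15334g in YPD.

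Of the 63, 3 genes belonged to Fe-S cluster assembly. NFU1 (SAKL0D13046g) encodes a late-acting protein that passes Fe-S clusters to their target enzymes. Its normalised log2 levels in YPD were −0.32, 0.11, 0.31 and −0.33 in WT and 1.43, 1.66, 1.62 and 1.71 in SEF1-VP16, where 0 is the 75th percentile of all gene probes of an array. In YPGly they were −0.42, −0.15, −0.44 and −0.33 in WT and 0.42, 0.38, 0.62 and 0.45 in SEF1-VP16. No array of SEF1-VP16 overlapped with WT in either medium, and the strain difference was 1.66 (3.17-fold) in YPD and 0.80 (1.74-fold) in YPGly.

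AIM1 (SAKL0D14410g) encodes the BolA-like protein Bol3, which acts with Nfu1 in late Fe-S cluster transfer. Its levels in YPD were −2.86, −3.05, −2.37 and −3.58 in WT and −1.64, −1.22, −1.24 and −1.47 in SEF1-VP16. Its levels in YPGly were −4.14, −3.29, −4.32 and −3.86 in WT and −3.15, −3.33, −2.74 and −3.30 in SEF1-VP16. The groups were apart in YPD, while in YPGly WT replicate 2 reached into the range of SEF1-VP16, and the differences were 1.57 and 0.77. ISU1 (SAKL0H07238g) encodes the scaffold on which Fe-S clusters are built. In YPD its levels were −0.31, −0.11, 0.21 and −0.81 in WT and 0.78, 0.61, 0.89 and 0.15 in SEF1-VP16, and in YPGly they were −1.15, −0.46, −0.96 and −0.98 in WT and −0.14, −0.41, 0.22 and −0.29 in SEF1-VP16. ISU1 was thus apart in YPGly and overlapped in YPD through WT replicate 3 and SEF1-VP16 replicate 4, with differences of 0.86 and 0.73.

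Across the Fe-S assembly list, 11 genes had a symbol and were tested, of which 5 were called higher in YPD and, in YPGly, 1 higher and 1 lower. Of all genes tested, 1.48% were called higher in YPD, and in YPGly 1.61% higher and 0.684% lower. The list had medians of 0.31 and 0.13. Besides NFU1, AIM1 and ISU1, the genes called in YPD were SSQ1, a chaperone that works on the scaffold (0.82 in YPD and 0.13 in YPGly), and IBA57, which acts in a late step of cluster maturation (0.65 and 0.24), and both stayed outside the 63 through YPGly. NFS1, the cysteine desulphurase that supplies the sulphur, differed by −0.12 and 0.05, and YFH1, frataxin, by 0.20 and −0.05.

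Of 3 genes on the SDH assembly list, SDH8 and SDH5 were among the 63. SDH8 (SAKL0D06908g), which helps the flavoprotein subunit to join the complex, had levels in YPD of −1.16, −0.80, −0.51 and −1.64 in WT and 0.11, 0.22, 0.22 and −0.33 in SEF1-VP16. In YPGly its levels were −1.65, −1.18, −1.89 and −1.76 in WT and −0.60, −0.94, −0.39 and −1.09 in SEF1-VP16. The arrays of the strains did not overlap in either medium, and the differences of 1.08 (2.12-fold) and 0.87 (1.82-fold) made SDH8 the gene with the second highest smaller difference of the 63. SDH5 (SAKL0C08426g), which is needed to attach the flavin to that subunit, had levels of −0.66, −0.84, −0.48 and −1.27 in WT and 0.39, 0.36, 0.41 and 0.27 in SEF1-VP16 in YPD. In YPGly they were −0.94, −0.62, −1.20 and −1.19 in WT and −0.29, −0.57, −0.017 and −0.69 in SEF1-VP16, so that the strains were far apart in YPD (1.17) and touched in YPGly (0.59). The other gene of the list, ACN9, differed by 0.20 and −0.10.

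YMR31 (SAKL0F00660g) encodes a small subunit of the 2-ketoglutarate dehydrogenase complex that holds the shared dihydrolipoyl dehydrogenase in place. Its levels in YPD were −0.64, −0.20, −0.035 and −0.65 in WT and 0.82, 0.88, 0.86 and 0.90 in SEF1-VP16, and in YPGly −0.62, −0.38, −0.85 and −0.71 in WT and 0.014, −0.15, 0.48 and 0.085 in SEF1-VP16. All SEF1-VP16 arrays exceeded all WT arrays in both media, by 1.25 on average in YPD (2.37-fold) and 0.75 in YPGly (1.68-fold). In the list of 2-oxo acid dehydrogenases, 9 genes were tested. In YPD 3 were called higher and 1 lower (1.48% and 0.627% of all genes tested), and 3 were called higher in YPGly (1.61%). Those higher were YMR31 and the left-out subunit genes KGD1 and KGD2, whereas LPD1, the dihydrolipoyl dehydrogenase itself, differed by 0.22 and 0.40, and PDA1 and PDB1 of pyruvate dehydrogenase by −0.16 in YPD and by 0.15 and 0.13 in YPGly.

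**Figure D2:**
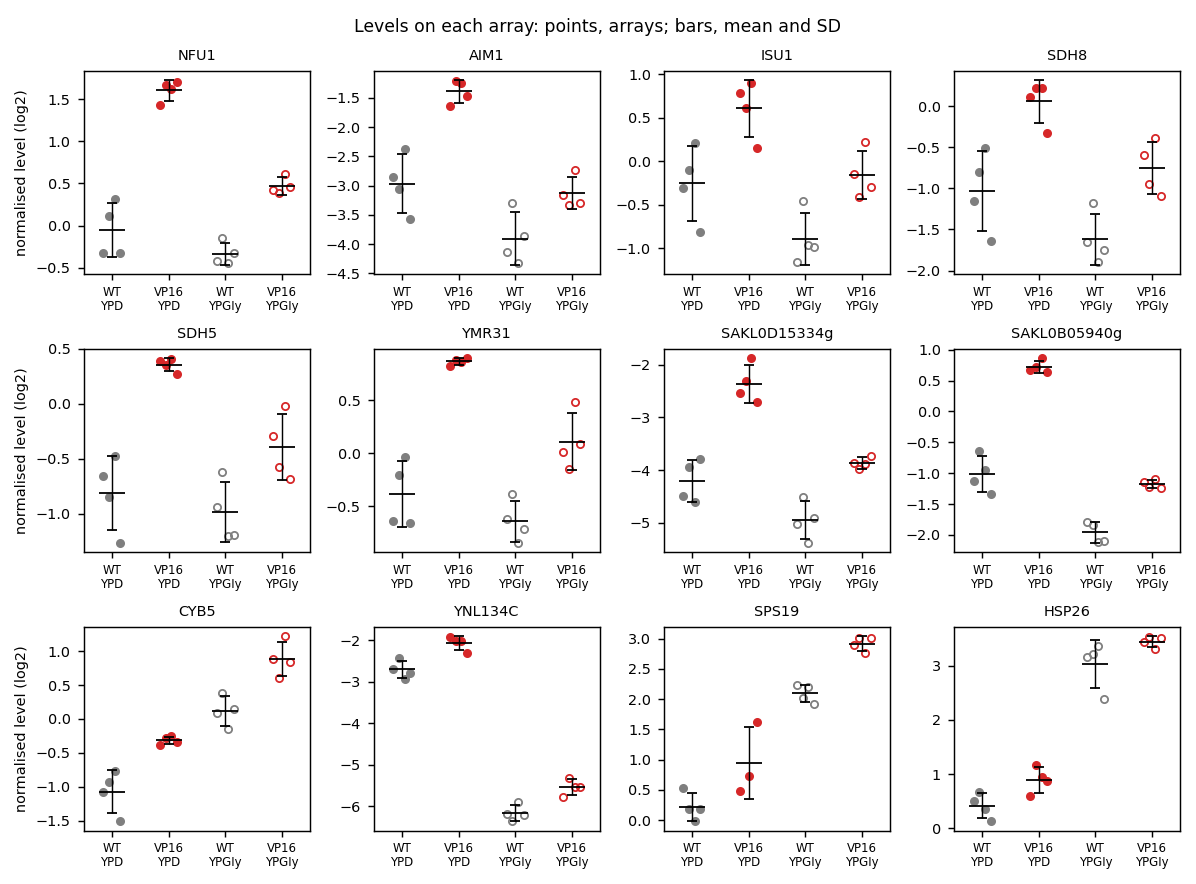
Normalised log2 level of 12 of the 63 genes on each array, with 4 arrays per group as points (WT grey, SEF1-VP16 red, YPD filled, YPGly open) and the mean and SD as bars (n = 4, for SPS19 n = 3 in SEF1-VP16 YPD, where 1 spot was marked as an outlier). NFU1, YMR31, SDH8, CYB5, YNL134C and both genes given by locus tag show no overlap between the strains in either medium.

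The set held further genes of mitochondrial metabolism and transport. AGC1 (SAKL0H24442g), the carrier that exchanges aspartate and glutamate across the inner membrane, was higher by 1.17 in YPD and 0.63 in YPGly, and ORT1 (SAKL0G03146g), the ornithine carrier, by 0.44 and 0.71. EAT1 (SAKL0H23210g), which makes ethyl acetate from ethanol, was higher by 1.34 and 0.48. MAE1 (SAKL0A09372g), the malic enzyme that turns malate into pyruvate, was higher by 0.69 and 0.47, ACH1 (SAKL0H19690g), which moves coenzyme A between short-chain acids, by 0.64 and 0.49, and the mitochondrial protein gene FMP41 (SAKL0E12584g) by 0.60 and 0.57. The strains were apart in both media in 5 of the 7 genes of this group, YMR31 included, and overlapped in YPD in ORT1 and MAE1. Of 18 tested genes of mitochondrial carriers, 3 were called higher in YPD and 5 in YPGly, against 1.48% and 1.61% of all genes tested. The list medians were −0.11 and 0.30.

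Among genes that maintain mitochondria, HSP10 (SAKL0G06842g), the partner of the matrix chaperonin, was higher by 1.13 in YPD and 0.50 in YPGly, and AFG1 (SAKL0G04642g), an ATPase linked to the turnover of inner membrane subunits, by 0.86 and 0.58. YLH47 (SAKL0F03718g), an inner membrane protein tied to mitochondrial ribosomes, was higher by 0.67 and 0.74, MRP21 (SAKL0F13156g), a protein of the small mitochondrial ribosomal subunit, by 0.53 and 0.55, and AIM11 (SAKL0F12166g), of unknown role, by 0.51 and 0.46. The strains were apart in both media in 4 of these 5 genes and overlapped in both in AIM11. HSP60, which encodes the chaperonin that Hsp10 caps, differed by 0.19 and 0.28. Of 13 tested genes of the chaperone and membrane list, 3 were called higher in YPD (AFG1, HSP10 and YLH47) and 3 in YPGly, with medians of 0.19 and 0.49. The list of the respiratory chain and ATP synthase also held CYB5, cytochrome b5, which acts outside that chain. Of its 27 tested genes, 2 were called higher in each medium, CYB5 and CYT2 in YPD and CYB5 and ATP20 in YPGly. Its medians were 0.06 and 0.17, and no gene of this list but CYB5 was among the 63. Of all genes tested, 1.48% were called higher in YPD and 1.61% in YPGly.

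The gene with the largest smaller difference had no symbol. SAKL0D15334g had levels in YPD of −4.49, −3.94, −4.60 and −3.80 in WT and −2.54, −2.31, −1.87 and −2.71 in SEF1-VP16, and in YPGly of −5.02, −4.51, −5.39 and −4.91 in WT and −3.87, −3.99, −3.89 and −3.72 in SEF1-VP16. Every SEF1-VP16 array lay above every WT array, with differences of 1.85 (3.61-fold) and 1.09 (2.13-fold), the only 2-fold difference of the 59 in YPGly. SAKL0B05940g had levels of −1.13, −0.64, −0.95 and −1.33 in WT and 0.67, 0.73, 0.86 and 0.64 in SEF1-VP16 in YPD, and of −1.79, −1.84, −2.12 and −2.10 in WT and −1.15, −1.23, −1.10 and −1.24 in SEF1-VP16 in YPGly. Here too the strains were apart in both media, by 1.74 (3.34-fold) where labelled YPD and 0.78 (1.72-fold) where labelled YPGly, and the 4 SEF1-VP16 arrays lay close together. SAKL0H21252g was dimmer and less even, with −5.95, −5.47, −5.46 and −7.54 in WT and −5.75, −4.84, −5.04 and −5.82 in SEF1-VP16 in YPD, and −6.74, −6.22, −6.75 and −6.11 in WT and −5.82, −5.04, −5.59 and −6.25 in SEF1-VP16 in YPGly. Its strains overlapped in both media, and 1 of the 4 WT arrays in YPD, replicate 4, was not well above background.

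The remaining 18 tested genes given by locus tag had strain differences between 0.35 and 0.90 in YPD and between 0.42 and 0.73 in YPGly. SAKL0B04620g (0.90 and 0.73) and SAKL0G12188g (0.70 and 0.67) led them, and both kept the strains apart in both media. SAKL0E01474g (0.47 and 0.47), SAKL0G15202g (0.48 and 0.48), SAKL0G13794g (0.43 and 0.42), SAKL0G07590g (0.41 and 0.42) and SAKL0D13244g (0.40 and 0.42) had small differences, and the strains were apart in both media in each of them. SAKL0E12540g (0.75 and 0.48), SAKL0F16192g (0.52 and 0.50), SAKL0F12650g (0.52 and 0.51), SAKL0F00902g (0.45 and 0.58), SAKL0A00946g (0.42 and 0.44) and SAKL0H06710g (0.35 and 0.47) overlapped in both media. SAKL0E04158g (0.54 and 0.43) was apart in YPD only, and SAKL0C09196g (0.61 and 0.54), SAKL0G19272g (0.49 and 0.47), SAKL0C13134g (0.43 and 0.56) and SAKL0A04752g (0.43 and 0.51) in YPGly only. The 0.43 of SAKL0A04752g in YPD rested on WT replicate 1, at −1.78 against −0.06, −0.31 and −0.30 on the other WT arrays, and was 0.04 without it. SAKL0C09196g was well above background on 3 of 4 arrays of each strain in YPD, and in YPGly on 4 WT and 2 SEF1-VP16 arrays.

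Of the enzymes outside central mitochondrial metabolism, CYB5 (SAKL0E10626g), cytochrome b5, which donates electrons in the synthesis of sterols and fatty acids, stood highest by the smaller difference. Its levels in YPD were −1.08, −0.92, −0.77 and −1.51 in WT and −0.38, −0.28, −0.26 and −0.35 in SEF1-VP16, and in YPGly 0.087, 0.38, −0.16 and 0.14 in WT and 0.88, 0.60, 1.22 and 0.84 in SEF1-VP16. The strains were apart by 0.76 and 0.77, nearly the same size in both media. SPS19 (SAKL0D11484g), a peroxisomal enzyme of the breakdown of unsaturated fatty acids, had 0.53, 0.18, −0.020 and 0.19 in WT and 0.48, 0.73 and 1.62 in the 3 usable SEF1-VP16 arrays in YPD, and 2.23, 2.02, 2.20 and 1.93 in WT and 2.89, 3.01, 2.76 and 3.02 in SEF1-VP16 in YPGly. It overlapped in YPD and was apart in YPGly, with differences of 0.73 and 0.83. YNL134C (SAKL0A10560g), similar to alcohol dehydrogenases, had −2.68, −2.42, −2.92 and −2.78 in WT and −1.93, −2.01, −2.01 and −2.29 in SEF1-VP16 in YPD, and −6.20, −6.36, −5.89 and −6.21 in WT and −5.78, −5.31, −5.55 and −5.53 in SEF1-VP16 in YPGly. The strain difference, 0.64 and 0.62, was small beside the gap between the media and kept the strains apart in each.

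MET17 (SAKL0H23892g), which fixes sulphide into homocysteine, was higher by 1.00 in YPD, where the strains overlapped, and by 0.60 in YPGly, where they did not. Of 13 tested genes of sulphur amino acid synthesis, MET17 was the 1 called higher in YPD, against 1.48% of all genes tested. The list medians were 0.05 in YPD and 0.12 in YPGly. OYE2 (SAKL0H22044g), an NADPH oxidoreductase, was higher by 0.42 in YPD, where the strains overlapped, and by 0.56 in YPGly, where they did not. Its levels in YPD were 2.55, 1.46, 2.06 and 2.22 in WT and 1.98, 2.23, 2.10 and 3.64 in SEF1-VP16, and without SEF1-VP16 replicate 4 the difference was 0.03. BNA3 (SAKL0D06886g), a kynurenine aminotransferase, was higher by 0.66 in YPD, but its difference in YPGly of 0.58 in the deposited values was 0.11 once a spot marked as an outlier was left out. The same step took RPL42B to 0.32 in YPGly and SAKL0H06710g to 0.35 in YPD, and no other of the 63 below 0.4.

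Of the genes for RNA and ribosomes, DBP2 (SAKL0E10670g), an RNA helicase, was higher by 0.75 in YPD and 0.60 in YPGly, and BRX1 (SAKL0C10428g), a factor of the large ribosomal subunit, by 0.81 and 0.56, both with the strains apart in both media. RPC19 (SAKL0E10692g), a subunit that RNA polymerases I and III share, was higher by 0.58 and 0.60, and NSA2 (SAKL0H24640g), which matures the large subunit, by 0.46 and 0.96. NHP2 (SAKL0H12056g), of the snoRNPs that modify ribosomal RNA, was higher by 0.41 and 0.47 with overlap in both media, as was RPL42B (SAKL0E12364g), a ribosomal protein, by 0.42 and 0.32. Of 36 tested ribosome biogenesis genes, 2 (DBP2 and BRX1) were called higher in YPD and 17 in YPGly, against 1.48% and 1.61% of all genes tested. The list median was 0.10 in YPD and 0.60 in YPGly, against 0.02 and 0.01 for all genes. Of that list, DBP2, BRX1, NHP2 and NSA2 were among the 63.

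AME1 (SAKL0A07392g), a kinetochore protein, had one of the most uneven differences, 1.64 (3.12-fold) in YPD and 0.51 (1.43-fold) in YPGly, with the strains apart in both. PCL1 (SAKL0C12100g), a G1 cyclin, was higher by 0.61 and 0.97, BRR6 (SAKL0F00682g), of the nuclear envelope, by 0.88 and 0.64, TAH11 (SAKL0D11660g), which licenses DNA replication, by 0.46 and 0.50, and MDM20 (SAKL0C10450g), part of the NatB acetyltransferase, by 0.46 and 0.48, and none of these 4 overlapped between strains in either medium. YHP1 (SAKL0G05896g), a homeodomain repressor of cell cycle genes, had −4.13, −4.23, −3.88 and −4.15 in WT and −3.58, −3.89, −3.44 and −3.75 in SEF1-VP16 in YPD, and −2.34, −2.04, −2.47 and −1.96 in WT and −1.50, −2.12, −1.59 and −1.77 in SEF1-VP16 in YPGly. The strains overlapped in both media through SEF1-VP16 replicate 2, with differences of 0.43 and 0.46. YMR265C (SAKL0D02046g), of unknown function, was higher by 1.02 and 0.61.

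HSP26 (SAKL0D02794g), a small heat shock protein, had 0.51, 0.67, 0.36 and 0.13 in WT and 0.59, 1.16, 0.94 and 0.87 in SEF1-VP16 in YPD, and 3.16, 3.22, 3.36 and 2.38 in WT and 3.44, 3.52, 3.31 and 3.51 in SEF1-VP16 in YPGly. The strains overlapped in both media, and WT replicate 4 was the lowest array in each. FUI1 (SAKL0H03476g), a uridine permease, was higher by 0.46 in YPD, where the strains overlapped, and by 0.55 in YPGly, where they did not, and 3 of its 4 WT arrays in YPD were well above background. Its SEF1-VP16 levels in YPD were −5.00, −3.65, −5.03 and −5.10, and without replicate 2 the difference was 0.12. MUC1 (SAKL0C03894g), a cell surface mucin, was at the edge of detection: 1 WT and 1 SEF1-VP16 array were well above background in YPD and none in YPGly. Its levels were −8.40, −8.98, −8.61 and −7.76 in WT and −7.68, −8.30, −6.04 and −8.38 in SEF1-VP16 in YPD, and −9.82, −9.22, −9.99 and −10.69 in WT and −9.12, −9.10, −9.24 and −8.53 in SEF1-VP16 in YPGly, so that no fold can be given. SAKL0B12760g was alike, with −7.71, −8.16, −7.77 and −7.71 in WT and −8.32, −4.30, −7.19 and −8.34 in SEF1-VP16 in YPD, where replicate 2 alone raised the mean, and −9.46, −9.64, −10.87 and −10.43 in WT and −7.75, −9.31, −9.27 and −10.21 in SEF1-VP16 in YPGly. SAKL0G09350g was not well above background on any array. SAKL0C14014g was well above background on 2 SEF1-VP16 arrays and no WT array in YPGly. Its SEF1-VP16 levels there were −9.13, −5.58, −6.28 and −10.08, so that its difference rested on replicates 2 and 3 and no fold can be given.

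The rule has a sharp edge among many small differences. Just inside it lay HSP26 (0.48 in YPD and 0.41 in YPGly in the deposited values), NHP2 (0.41 and 0.47) and SAKL0D13244g (0.40 and 0.42). Just outside lay SAKL0E05852g (0.399 and 0.51), RPL22B (SAKL0B01144g), a ribosomal protein gene (0.398 and 0.51), and RRP1 (SAKL0H18194g), of ribosome biogenesis (0.44 and 0.397).

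The size of the strain difference was uneven between the media in some of the genes. It was larger where labelled YPD in 37 of the 59 genes, as it was in 52.8% of all genes tested, and larger where labelled YPGly in 22, and exchanged labels would turn these counts round. The difference in YPGly minus that in YPD ran from −1.13 in AME1 to 0.51 in NSA2, with a median of −0.03, and it was below −0.5 in 10 genes and above 0.5 in 1. The 10 included SAKL0B05940g (−0.96), NFU1 (−0.86), EAT1 (−0.86), AIM1 (−0.80), SAKL0D15334g (−0.76) and HSP10 (−0.63). BNA3 (−0.54) was among them too, but its difference in YPGly was 0.58 with the outlier spot kept and 0.11 without it. These values come from the contrasts that chose the genes and were not tested.

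For some of the 59 genes a strain difference rested on 1 array. When each array of a medium was left out in turn, the lowest difference was smaller by over 1.5 times than that over all arrays for 15 genes in YPD and 9 in YPGly. It was under 0.2 in YPD for OYE2 (0.03), SAKL0A04752g (0.04), FUI1 (0.12), SAKL0C09196g (−0.021, without SEF1-VP16 replicate 2) and SAKL0H06710g (−0.086, without SEF1-VP16 replicate 3). In YPGly it was under 0.2 for SAKL0F00902g (0.09, without SEF1-VP16 replicate 2), SAKL0E04158g (0.18, without WT replicate 4), HSP26 (0.19, without WT replicate 4), RPL42B (0.18, without SEF1-VP16 replicate 3) and BNA3 (0.07, without SEF1-VP16 replicate 2). For SAKL0H21252g the difference of 0.74 in YPD was 0.26 without WT replicate 4, and for SPS19 that of 0.73 was 0.39 without SEF1-VP16 replicate 4. NFU1, AIM1, ISU1, SDH5, SDH8, YMR31, SAKL0D15334g and SAKL0B05940g were not among these genes.

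In its error, the effect of the medium was independent of that choice. It was tested as the mean of both YPGly groups minus the mean of both YPD groups. Where the strain difference was uneven between the media, this mean also took in part of that unevenness. It then differed from the effect within WT, as in NFU1 (−0.71 against −0.28) and AME1 (−0.77 against −0.20). Of the 59 genes, 22 (37.3%) were called higher on arrays labelled YPGly, against 26.8% of all genes tested, and 20 (33.9%) lower, against 20.2%, at a limma adjusted p of 0.05 or less with 1.5-fold. The other 17 were not called. Under exchanged labels these would be 22 genes lower and 20 higher in YPGly. All 8 YPGly arrays lay above all 8 YPD arrays in 11 of the 59, against 29.9% of all genes tested, and below them in 7, against 19.6%. These counts of separation are not independent of the choice. The strain difference that the rule asks for widens each set of 8 arrays and makes full separation harder to reach. The median was 0.27 over the 59 genes and 0.14 over all genes tested, and the sign was the same within WT and within SEF1-VP16 in 58 of 59. The genes thus did not share a direction between media: WT YPD was the lowest of the 4 group means in 32 of them and WT YPGly in 27.

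**Figure D3:**
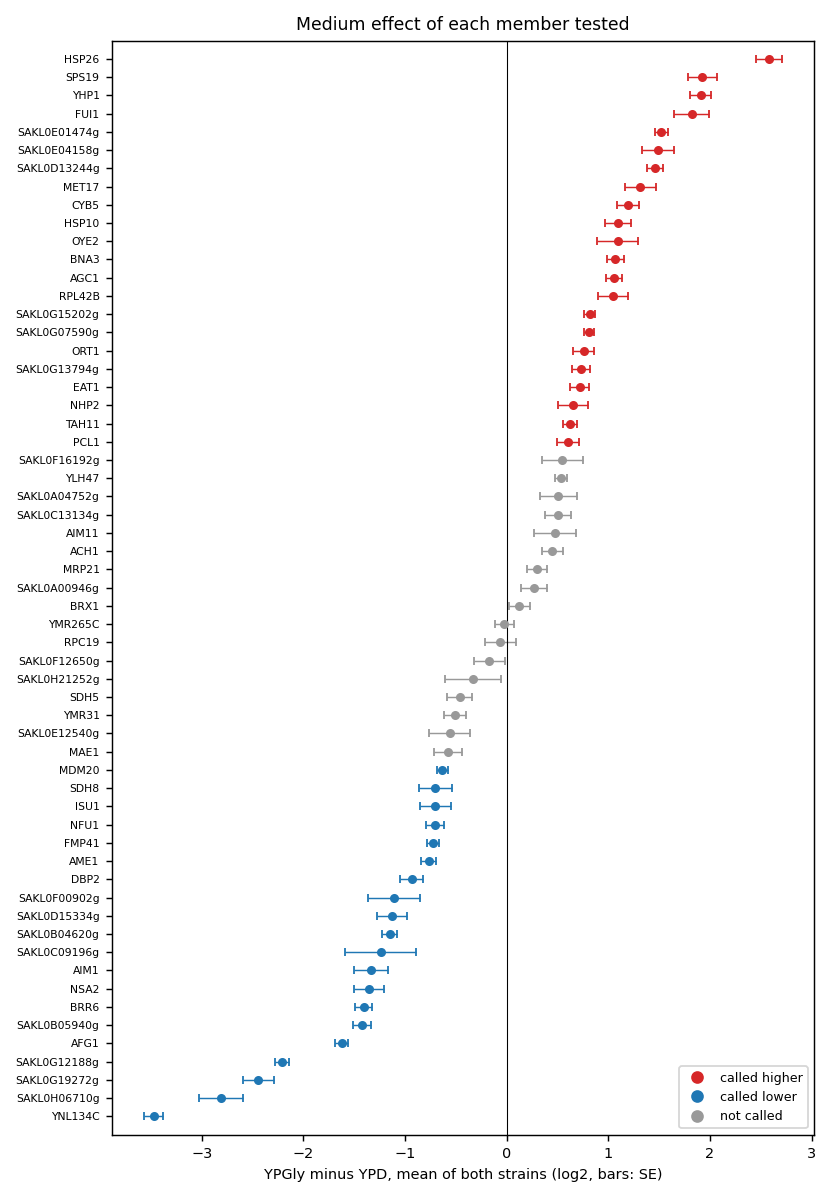
Medium effect of each of the 59 genes tested, as the mean level of the YPGly arrays minus that of the YPD arrays over both strains (horizontal axis, log2, bars give the SE from limma), with 22 genes called higher in red, 20 called lower in blue and 17 not called in grey. The values run from −3.48 for YNL134C to 2.58 for HSP26.

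YNL134C was lowest, at −3.48 (SE 0.09, 11.1-fold lower where labelled YPGly, limma adjusted p = 3.86e-15), with no YPGly array reaching any YPD array. SAKL0H06710g had −4.15, −3.85, −3.25 and −4.23 in WT and −3.74, −2.64 and −4.17 in the 3 usable SEF1-VP16 arrays in YPD. In YPGly it had −7.01, −6.39, −6.68 and −6.88 in WT and −6.71, −6.26, −6.26 and −5.85 in SEF1-VP16. It was lower in YPGly by 2.81 on the log2 scale (7.03-fold, limma adjusted p = 6.74e-09), with no overlap. SAKL0G19272g had −4.51, −4.66, −3.89 and −4.82 in WT and −4.44, −3.92, −4.26 and −3.31 in SEF1-VP16 in YPD, and −6.86, −6.69, −7.01 and −7.07 in WT and −6.37, −6.62, −6.32 and −6.44 in SEF1-VP16 in YPGly. Its medium effect was −2.45 (SE 0.15, 5.45-fold lower, limma adjusted p = 2.31e-10). At the other end HSP26 was higher in YPGly by 2.58 (SE 0.13, 5.99-fold, limma adjusted p = 1.32e-11), SPS19 by 1.93 (SE 0.14, 3.80-fold, limma adjusted p = 3.84e-09) and YHP1 by 1.91 (SE 0.10, 3.76-fold, limma adjusted p = 4.18e-11), each with all 8 YPGly arrays above all YPD arrays.

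The 3 genes of Fe-S assembly lay lower where labelled YPGly, AIM1 by 1.34 on the log2 scale, NFU1 by 0.71 and ISU1 by 0.70, and all were called (limma adjusted p = 1.58e-06, 2.52e-06 and 0.000493). In NFU1 the effect was −0.28 within WT, which was not called, and −1.14 within SEF1-VP16. SDH8 was called lower at −0.70 (limma adjusted p = 0.000735), while SDH5 at −0.46 and YMR31 at −0.51 did not reach 1.5-fold. SAKL0G12188g (−2.21), SAKL0C09196g (−1.24), SAKL0B04620g (−1.15), SAKL0D15334g (−1.13), SAKL0F00902g (−1.11), SAKL0B05940g (−1.42), AFG1 (−1.62), BRR6 (−1.41), NSA2 (−1.36), DBP2 (−0.93), AME1 (−0.77), FMP41 (−0.72) and MDM20 (−0.63) were called lower as well. In AME1 the effect was −0.20 within WT, short of 1.5-fold, and −1.33 within SEF1-VP16. Called higher were HSP10 (1.097), AGC1 (1.06), ORT1 (0.76), EAT1 (0.72), CYB5 (1.19), MET17 (1.31), OYE2 (1.09), BNA3 (1.07), FUI1 (1.82), RPL42B (1.05), NHP2 (0.65), TAH11 (0.62) and PCL1 (0.61). Within WT and within SEF1-VP16 the effect was 1.15 and 0.28 in EAT1 and 0.43 and 0.78 in PCL1, so each fell short of 1.5-fold in 1 strain. Of the genes given by locus tag, SAKL0E01474g (1.52), SAKL0E04158g (1.49), SAKL0D13244g (1.46), SAKL0G15202g (0.82), SAKL0G07590g (0.81) and SAKL0G13794g (0.73) were called higher. Of the 6 enzymes grouped with CYB5, 5 were called higher and YNL134C lower, and of the 7 genes of mitochondrial metabolism, 3 were called higher and FMP41 lower. Of all genes tested, 26.8% were called higher and 20.2% lower, and groups this small show little beside these shares. MAE1, the only one of the 63 on the list of glucose-repressed genes, was at −0.58 and not called.

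The 63 genes were set against lists that the study made from other samples, by membership alone. One list held the genes assigned to binding peaks from chromatin immunoprecipitation of Sef1. Of the 59 genes tested, 21 (35.6%) were on that list, against 13.6% of all genes tested, and MUC1, which was not tested, was on it too. Of the 13 genes at least 2-fold higher where labelled YPD, 10 were on it, and of the other 46, 11 were. The 3 of the 13 that were not were NFU1, AIM1 and YMR31. This split used a strain difference that chose the genes, and no like count was made over all genes tested. It is a description and no test. At the 50 highest-ranked peaks were 8 of the 59 (13.6%, against 1.01% of all genes tested), namely SAKL0B05940g, SPS19, TAH11, BRR6, HSP10, ISU1, ACH1 and OYE2.

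Of the 63 genes, 7 were on the lists from the SEF1 deletion. YNL134C and AGC1 were on the list of genes lower without SEF1 in YPD (3.39%, against 0.304% of all genes tested), and SAKL0B05940g, FMP41, YMR31, BRR6 and AFG1 on that for YPGly (8.47%, against 1.82%). Of these 7, 4 were also assigned to a peak. None of the 63 was on the list of genes induced by low iron, which held 2.11% of all genes tested. In all, 38 of the 63 were on none of these lists. The lists were drawn with thresholds of their own, and the shares are a description.

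**Figure D4:**
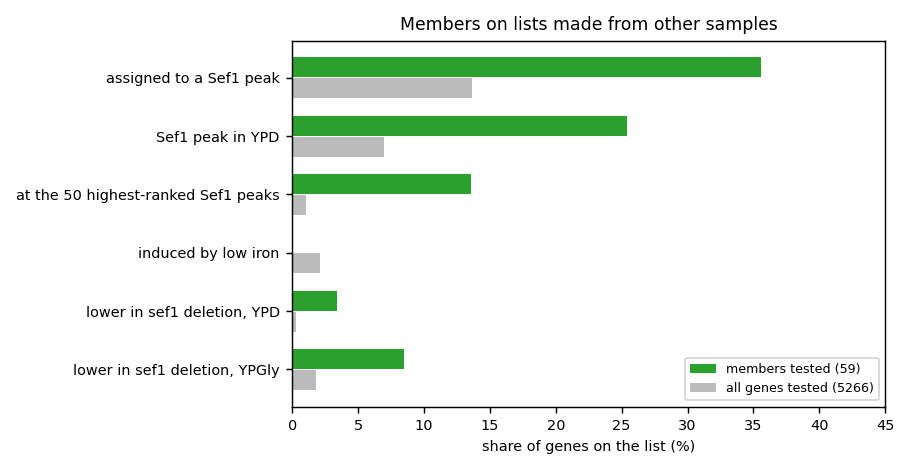
Share of genes (horizontal axis, %) on each list made from other samples, for the 59 genes tested (green) and all 5266 genes tested (grey). The green bar is at 35.6% for genes assigned to a Sef1 peak and at 0 for genes induced by low iron.

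Some of the genes lay next to each other. By consecutive locus tags, which run along each chromosome, 10 of the 63 (15.9%) had a neighbour among the 63 or the left-out genes, against 2.99% of all genes. The pairs were SDH8 with BNA3, YMR31 with BRR6, DBP2 with RPC19, BRX1 with MDM20, PCL1 with the left-out siderophore transporter gene SIT1, and SAKL0E04158g with the left-out SDH3. SDH8 and BNA3 were assigned to the same peak, and their strain differences were 1.08 and 0.66 in YPD and 0.87 and 0.11 in YPGly. Other genes shared a peak with a gene outside the set: SPS19 with BUD16 (0.06 in YPD and 0.66 in YPGly), TAH11 with ECM10 (0.37 and 0.38) and HSP10 with the gene named YOR020W-A (0.30 and −0.05).

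A second probe of the gene existed for 58 of the 59. This dimmer probe gave a positive difference in both media for 54 of the 58 and at least 0.4 in both for 33, with medians of 0.61 in YPD and 0.47 in YPGly. It was below 0 in at least 1 medium for SAKL0C09196g, SAKL0F12650g, FUI1 and SAKL0E04158g. For SAKL0F12650g it gave −0.02 and −0.04 against 0.52 and 0.51, and for FUI1 −1.07 and 0.15. In SAKL0D15334g (2.01 and 0.93), NFU1 (1.76 and 0.71), SAKL0B05940g (1.81 and 0.73), AME1 (1.67 and 0.57) and SDH8 (1.12 and 0.85) the probes gave nearly the same. FUI1, BNA3, MUC1, SPS19 and YNL134C each share their symbol with another gene on the array, and none of those other genes reached 0.4 in both media.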

How the data were processed

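RNA of WT and SEF1-VP16 from both media was hybridised to 16 single-colour Agilent arrays, 4 per group. Spots were read by the authors with Feature Extraction, an Agilent program. The scanner files give intensity values, per the file headers a processed signal after background subtraction, and a median signal of spot and background. The authors also deposited log2 values scaled to the 75th percentile of each array. Each of their columns differed from the log2 processed signal by 1 constant, to within 3.36e-06, so they are on the log2 scale, not centred by gene, with column medians between −1.48 and −1.27.

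The members were chosen on the deposited log2 values. Levels and tests used the log2 processed signal minus the 75th percentile of the gene probes of the array, with 332 spots marked as outliers left out. The brighter of the probes stood for a gene, and 5266 of 5316 genes, well above background on the 4 arrays of 1 or more groups, were tested. A cross-hybridising probe by its design name stood for 33 genes and for 0 of the members. limma 3.58.1 in R 4.3.3 fitted 4 group means to the 16 arrays, with Benjamini-Hochberg adjustment over the 5266 genes, and calls needed 1.5-fold and an adjusted p no higher than 0.05. The median residual SD was 0.17. Precision is limited by having 4 arrays in a group. The methods' t-test, unpaired and unadjusted with 1.5-fold, was an alternative, as were other scalings, probes, filters and left-out arrays. Normexp used the median spot signal, since the files analysed hold no mean signal. The fit was tested on simulated data.

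The members, gene lists and tests were chosen with earlier results of these data known. Array values are given for the 10 members with the largest smaller strain difference, those of Fe-S cluster assembly, SDH assembly and 2-oxo acid dehydrogenases, and the 3 called members with the largest medium effect each way. Symbols came from the study's tables, which named 2115 genes, so the lists (also mitochondrial carriers, respiratory chain and ATP synthase, chaperones and membrane upkeep, ribosome biogenesis, sulphur amino acid synthesis and glucose-repressed and glucose-induced markers) are incomplete. Of 17 glucose-induced genes, 6 were called higher and 3 lower where labelled YPGly.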

Additional observations from a re-analysis of the deposited data

Results flagged for a closer look

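The share of gene probes well above background was 98.4% on SEF1-VP16 YPD replicate 3, above the 96.7% to 97.0% of the other arrays of that group, and its gap took 0.833 of the range of the group. It was likewise 98.4% on SEF1-VP16 YPGly replicate 4, against 97.2% to 97.4% on the others, with a gap of 0.831 of the range. Both ratios pass Dixon's critical value for 4 samples. In all, 70 groups of 4 values were examined, 2 were marked, and chance marks about 1 group in 20. SEF1-VP16 YPD replicate 3 was the highest array of its group in 30 of 57 members with 4 usable values and in 27.6% of all genes tested, and without it 51 genes passed the rule.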

How the results depend on the processing

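The number of genes that pass the rule rests on its threshold: 139 passed at 0.3 and 26 at 1.5-fold, against 63. Other settings gave 46 (quantile normalization, 42 of them shared with the 63) to 88 (normexp background, 47 shared), and with the dimmer probe 66 passed, 35 shared. Leaving out 1 array gave 48 to 91, the fewest without WT YPD replicate 4, which was the lowest of its group in 31 of 59 members and 36.2% of all genes tested, and the most without WT YPGly replicate 2. The counts called in the medium effect stayed within 1.5 times under every alternative run, and leaving out 1 array gave 20 to 24 higher and 20 to 22 lower. For the strain effects, where the calls follow from the choice of the genes, leaving out 1 array gave 24 to 27 calls in YPD and 15 to 21 in YPGly. With the replicate number as a block (replicate block), 27 and 20 members were called in the strain effects, and 22 higher and 20 lower in the medium effect. Same-numbered arrays correlated at −0.55 to 0.77 in their deviations from the group mean, with a median of 0.13. Those numbered 4 correlated at 0.16 to 0.41. Arrays with different numbers could correlate as well, such as WT YPGly replicate 2 and SEF1-VP16 YPGly replicate 3 at 0.77. The numbers thus pair the arrays in part at most, and arrays of different groups shared some deviations. For the 16 genes with array values that were tested, 394 alternative values of the medium effect kept their direction and side of the threshold, 4 passed it anew, 1 (NFU1 within WT) no longer did, and 1 turned: SAKL0H21252g, not called, was at −0.33 and at 0.21 with quantile normalization. The cause was not tested. In an alternative added after the data were seen, leaving out 1 array turned the YPD strain differences of SAKL0C09196g (0.61 to −0.021) and SAKL0H06710g (0.35 to −0.086). The median medium effect of all genes was 0.14 as scaled here and 0.04 with array medians, so directions of effects near 0 depend on the scaling.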
